A study of Mus musculus with 4 samples.

Results

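The genes described here are 10 members of the route by which lymphotoxin and tumour necrosis factor switch on NF-kB. They are the receptors Ltbr and Tnfrsf1a, the kinase Map3k14, the ubiquitin-ligase proteins Traf3 and Birc3, the Rel-family genes Nfkb1, Nfkb2, Rela and Relb, and the feedback inhibitor Tnfaip3. They were chosen by name from the gene symbols of the deposited tables, and all 10 were found among 32285 listed genes. They were read from single-cell 3′-end libraries made in droplets, with stromal cells of skin-draining lymph nodes (inguinal, axillary and brachial) taken from C57BL/6 females aged 12 weeks. The 2 Notch2 cKO libraries were Notch2 cKO 1 (Notch2 fl/fl mice with Ccl19-Cre and the R26R-EYFP reporter) and Notch2 cKO 2 (Notch2 fl/fl mice with Ccl19-Cre and no reporter named). The 2 control libraries were control 1 (Ccl19-Cre with R26R-EYFP) and control 2 (Notch2 fl/fl by its genotype label, although its title names Ccl19-Cre). Libraries numbered 1 formed batch 1 and pooled 6 mice each that were not littermates across groups, whereas libraries numbered 2 formed batch 2 and pooled 3 littermates each. Cre driven by Ccl19 recombines in cells of the reticular lineage, so cells outside that lineage keep Notch2. All cells had been sorted as live, CD45-negative and CD31-negative.

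Lymphotoxin beta receptor is best known for building lymph nodes. Lymphocytes and lymphoid tissue inducer cells carry its ligand, and the receptor on stromal cells maintains the chemokine-producing reticular network and the follicular dendritic cells. In unstimulated cells a complex of TRAF3, TRAF2 and the cIAP proteins (encoded by Birc2 and Birc3) keeps the kinase NIK, the product of Map3k14, at a low level. Receptor engagement frees NIK, the p100 protein of Nfkb2 is processed to p52, and p52 pairs with RelB in what is called the noncanonical arm. The canonical arm runs from TNF receptor 1 (Tnfrsf1a) through the IKK kinases to dimers of RelA with the p50 product of Nfkb1. Several of these genes, among them Nfkb2, Relb, Birc3 and Tnfaip3, are themselves known NF-kB targets.

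The sequences just upstream of 3 of these genes carry the letters of a kB site, the DNA element that NF-kB dimers bind, and are shown here. The letters searched were GGGNN followed directly by TTNCC, where N is any base, on both strands, within a window of 300 bases around each RefSeq gene start (build GRCm38.p6). Promoters were listed for 8 of the 10 genes, with 11 starts in all, and Nfkb1 and Relb had none listed. Matches were found in 3 of the 8 genes, Nfkb2, Traf3 and Tnfaip3, against 5.48% of all 27025 genes with a promoter. Birc3 and Map3k14, which have the largest falls in adventitial-like cells given below, had no match. By start they were found at 5 of 11, against 4.79% of all 32851 promoters, but 3 of the 5 are starts of Nfkb2, and the windows of its starts 2 and 3 overlap and share 1 match. The last 100 bases before the start are given 5′ to 3′ on the gene's strand, with matches in capitals. They lie at chr19:46304637-46304736 (plus strand), chr12:111166270-111166369 (plus strand) and chr10:19015411-19015510 (minus strand), and Ltbr, at chr6:125313886-125313985 (minus strand), is given as a promoter with no match in its window.
Nfkb2: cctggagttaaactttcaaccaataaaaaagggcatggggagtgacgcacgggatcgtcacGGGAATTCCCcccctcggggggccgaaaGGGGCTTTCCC
Traf3: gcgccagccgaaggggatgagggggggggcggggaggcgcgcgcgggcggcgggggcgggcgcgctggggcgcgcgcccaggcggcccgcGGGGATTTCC
Tnfaip3: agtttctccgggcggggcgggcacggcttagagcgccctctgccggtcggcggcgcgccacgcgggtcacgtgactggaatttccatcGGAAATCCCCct
Ltbr: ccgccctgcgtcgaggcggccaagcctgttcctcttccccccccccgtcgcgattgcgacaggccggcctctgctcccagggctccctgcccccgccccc
The Nfkb2 start holds a palindromic match, GGGAATTCCC, beginning 39 bases before the start, and 2 overlapping matches that begin 11 and 10 bases before it. The Traf3 match begins 10 bases and the Tnfaip3 match 12 bases before the start. These are matches of letters, and binding was not measured.

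In the mm10 annotation Ltbr (chr6:125306571-125313885) and Tnfrsf1a (chr6:125349362-125362484) are near neighbours, 35476 bases apart with 1 gene between them. Nfkb1 (chr3:135584655-135691547) and Traf3 (chr12:111166370-111267153) are the longest of the 10 loci. Nfkb2 (chr19:46304320-46312385) overlaps 2 genes and Traf3 overlaps 1 gene on the opposite strand, so that some of their counts could belong to a partner if strand was not used in counting, a setting the sources used here do not state. Nfkb1 and Map3k14 (chr11:103219762-103267472) each overlap 1 gene on their own strand, from which reads could not be told apart by strand. The other loci are Rela (chr19:5637483-5648130), Relb (chr7:19606217-19629438), Birc3 (chr9:7848699-7873186) and Tnfaip3 (chr10:19000910-19015657).

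Libraries held 8491 to 18482 barcodes and 21533049 to 119002408 unique molecular identifiers (UMIs), with batch 2 the deeper, and any pair of libraries shared 0.247% to 0.546% of the smaller library's barcodes. After filtering, 46638 cells were kept and 42068 of them were gated as fibroblasts. Cells were assigned by marker genes, none of them among the 10 genes, to gates named T-zone reticular-like (14569 cells), marginal reticular-like (2845), follicular dendritic-like (164), adventitial-like (1042), interferon-high (2660) and Inmt-high (2470), and 18318 fibroblasts passed no such gate. A perivascular-like gate held 1835 cells. Cuts split a continuum: 106 adventitial-like cells lay within 25% above their cut and 112 cells within 20% below it, and for the T-zone gate these numbers were 2033 and 1891. For the interferon-high gate they were 512 and 1046, and for the Inmt-high gate 546 and 885. For the marginal gate they were 356 and 477, and 880 of its 2845 cells also passed another gate. Counts were summed per library and gate and are given as CPM, the usual count scaled to the total UMIs of the sum, so a lower value cannot tell fewer transcripts per cell from fewer cells that carry the transcript. The targeted gene Notch2 stood at 19.1 and 39.1 CPM in fibroblasts of Notch2 cKO 1 and 2, against 39.4 and 58.4 CPM in control 1 and 2, a log2 fold change of -0.85 (SE 0.19, edgeR quasi-likelihood, Benjamini-Hochberg adjusted p = 0.031) with -1.03 in batch 1 and -0.64 in batch 2. In adventitial-like cells, described next, Notch2 stood at 85.6 and 95.5 CPM in Notch2 cKO 1 and 2, against 73.6 and 137 CPM in control 1 and 2, so the cKO value was not the lower in batch 1. The labels do not say which exons are floxed, so 3′-end counts are no check of the deletion.

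Fibroblasts adjoining vessels and capsule, marked by Pi16, Cd34 and Dpp4 and called adventitial-like, held Ltbr at no lower level than other fibroblasts but much less of the noncanonical and feedback genes. Of the 10 genes, 8 were lower in adventitial-like cells than in the other fibroblast-gated cells and 0 were higher, where 30.5% of the 15067 genes tested passed (16.8% lower and 13.7% higher). The median log2 fold change was -1.0 over the 10 genes and -0.07 over all genes. Ltbr and Rela, with log2 fold changes of 0.32 (SE 0.14) and 0.12 (SE 0.13), were the pair that did not pass. Tests of gates used edgeR's quasi-likelihood test with the library as a block and Benjamini-Hochberg adjustment over all genes at 0.05.

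Birc3, which encodes cIAP2, was the most reduced. It had 95.9 and 220.3 CPM in the adventitial-like cells of Notch2 cKO 1 and 2 and 106 and 178 CPM in those of control 1 and 2, against 374, 701, 288 and 884 CPM in the other fibroblasts of the same libraries. The adventitial-like value was the lower within each library, and the log2 fold change was -1.96 (SE 0.16, edgeR quasi-likelihood, Benjamini-Hochberg adjusted p = 7.5e-08, 4 libraries). Map3k14, the gene of NIK, had 24.8 and 30.3 CPM in adventitial-like cells of Notch2 cKO 1 and 2 and 20.6 and 41.3 CPM in those of control 1 and 2, against 59.3, 97.3, 45.1 and 97.0 CPM in the other fibroblasts. It was again lower in adventitial-like cells within each library, and the log2 fold change was -1.41 (SE 0.15, edgeR Benjamini-Hochberg adjusted p = 1.9e-06). Nfkb2, whose product p100 is the substrate of the noncanonical arm, had 92.4, 53.5, 85.4 and 49.3 CPM in adventitial-like cells, against 234, 139.8, 186 and 109 CPM in the other fibroblasts (Notch2 cKO 1 and 2, then control 1 and 2). Nfkb2 was likewise lower within each library (log2 fold change -1.33, SE 0.13, edgeR Benjamini-Hochberg adjusted p = 9.9e-07).

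Relb, the partner of p52, had 26.5, 70.5, 32.4 and 70.9 CPM in adventitial-like cells, against 77.6, 146, 70.3 and 135 CPM in the other fibroblasts, in the same library order. Within each library the adventitial-like value was the lower, although batch 2 values of adventitial-like cells reached the level of the other fibroblasts of control 1. The log2 fold change was -1.19 (SE 0.15). Tnfaip3, which encodes the deubiquitinase A20 that shuts the canonical arm down, fell to 87.3, 58.0, 183 and 98.2 CPM in adventitial-like cells, against 258, 164, 246 and 291 CPM in the other fibroblasts (log2 fold change -1.38, SE 0.17). Traf3 was lower in 4 of 4 libraries (log2 fold change -0.80, SE 0.16), with 8.83 CPM in the 155 adventitial-like cells of control 1 as its lowest value. Nfkb1 (-0.58, SE 0.20) and Tnfrsf1a (-0.41, SE 0.13) passed by less. Nfkb1 was lower in adventitial-like cells in 3 of 4 libraries, since control 1 had 265 CPM in adventitial-like cells against 218 CPM in the other fibroblasts. Without control 2 neither Nfkb1 (-0.34) nor Tnfrsf1a (-0.36) passed. Nfkb1 also did not pass without Notch2 cKO 2 (-0.46), nor Tnfrsf1a without Notch2 cKO 1 (-0.37), whereas Birc3, Map3k14, Nfkb2, Relb, Traf3 and Tnfaip3 passed without any 1 library. Without the library block 4 of the 10 genes passed, Birc3, Map3k14, Nfkb2 and Tnfaip3.

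Ltbr itself went the other way in size. It stood at 72.8 and 42.8 CPM in the adventitial-like cells of Notch2 cKO 1 and 2 and at 61.8 and 33.3 CPM in those of control 1 and 2, against 43.3, 35.9, 41.2 and 31.3 CPM in the other fibroblasts. The adventitial-like value was the higher in each library, but the difference did not pass (edgeR Benjamini-Hochberg adjusted p = 0.11). Among the fibroblast gates and the perivascular-like gate, with at least 20 cells each, Ltbr was highest in adventitial-like cells in the 2 Notch2 cKO libraries. It was highest in perivascular-like cells in the 2 controls, although that gate of control 1 held few cells and more T-zone than perivascular markers, as described below. By CPM, marginal and perivascular-like cells also had more Ltbr than the cells compared with them in 4 of 4 libraries, and neither difference passed. Leukocytes, which were few after the sort, had 18.9 and 9.0 CPM of Ltbr in Notch2 cKO 1 and 2 and 8.01 CPM in control 2. None of the 23 leukocyte-gated cells of control 1 had an Ltbr UMI, which allows up to 57.2 CPM.

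**Figure D1:**
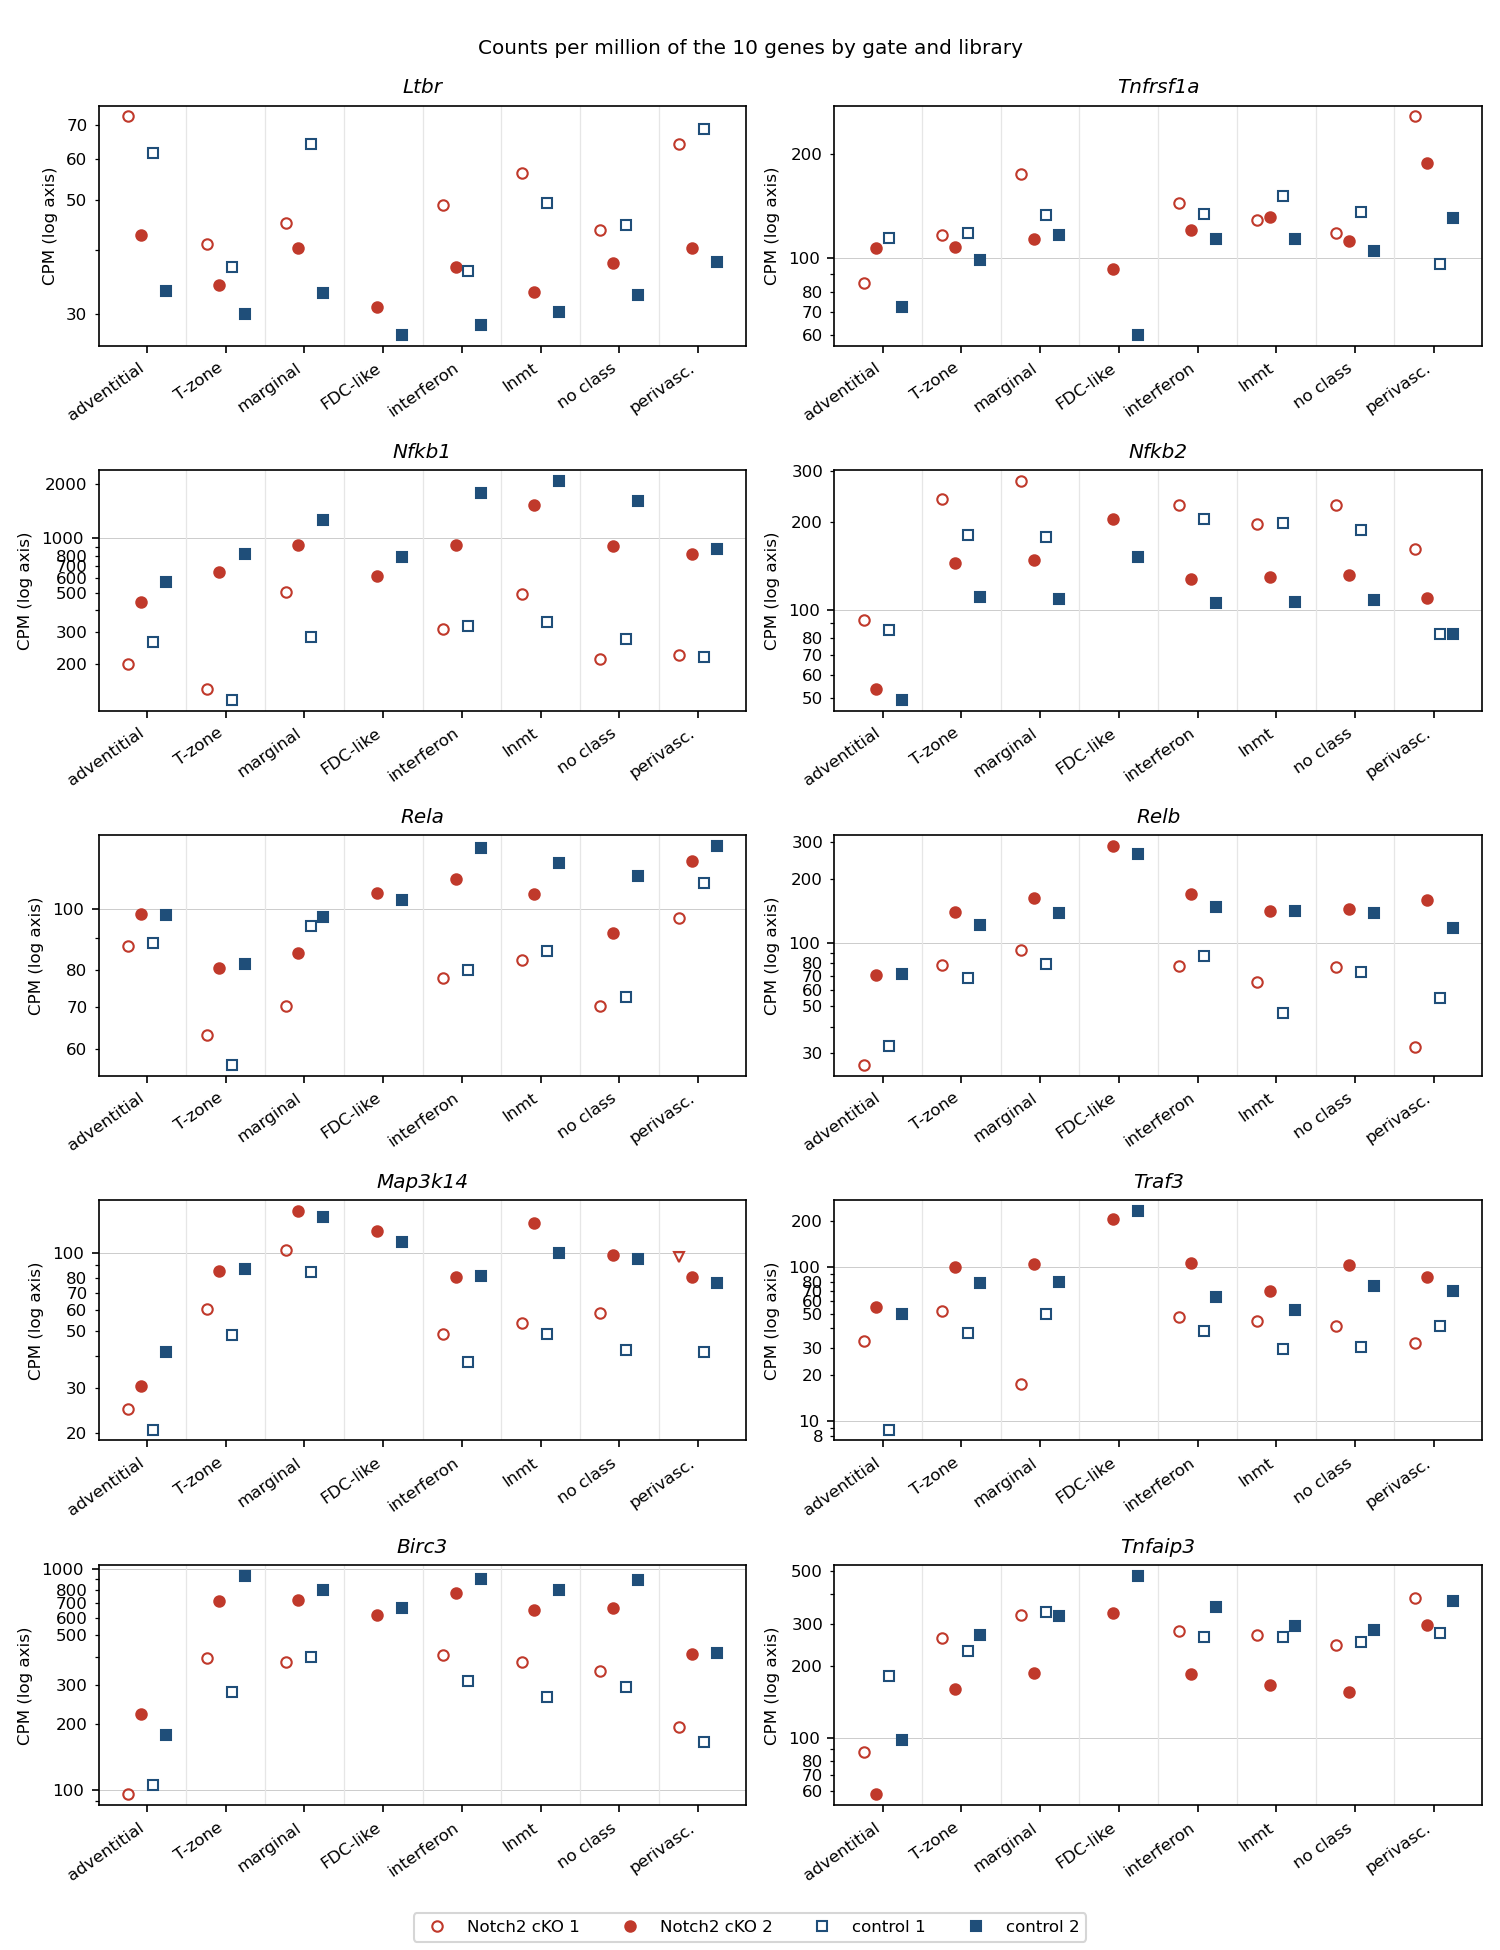
CPM (log axis) of each of the 10 genes in 8 gates, with 1 point per library (circles Notch2 cKO, squares control, open batch 1, filled batch 2) and a triangle at the 3-count floor where no UMI was found. Adventitial-like points are the lowest for Birc3, Relb and Tnfaip3 in 4 of 4 libraries, and Nfkb1 differs most between batches.

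Other genes of the pathway, named here from the lists after their values were seen, were lower as well. Of 11 inhibitors and other Rel genes, 9 were lower in adventitial-like cells and 0 higher, including Nfkbie (log2 fold change -1.92), Tnip1 (-1.80), Nfkbid (-2.54) and Nfkbia (-0.72), which encode IkB proteins or a partner of A20. Of 8 adaptors and ubiquitin ligases 4 were lower, with Birc2, the gene of cIAP1, at -1.93 and Traf1 at -1.64. The IKK and upstream kinases did not follow: 0 of 8 passed in either direction, with Ikbkb at 0.32 and Chuk at 0.05. Inflammatory NF-kB targets were lower for 9 of 13, among them the adhesion molecules Vcam1 (-2.15) and Icam1 (-1.35). All 6 tested lymphoid-organ targets of the lymphotoxin route were lower, from Glycam1 at -1.94 to Ccl21a at -2.97, but Ccl21a and Cxcl13 are also markers of gates inside the compared cells. Immediate early and dissociation genes, which respond to tissue digestion, were lower for 10 of 12. Their summed level was 15360.1 to 22788 CPM in adventitial-like cells, against 22015 to 35739 CPM in the other fibroblasts. Their part in the differences of the 10 genes was not tested. Summed leukocyte markers were near 0 in both, at 0.856 to 7.14 CPM in adventitial-like cells and 7.38 to 17.3 CPM in the other fibroblasts.

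**Figure D2:**
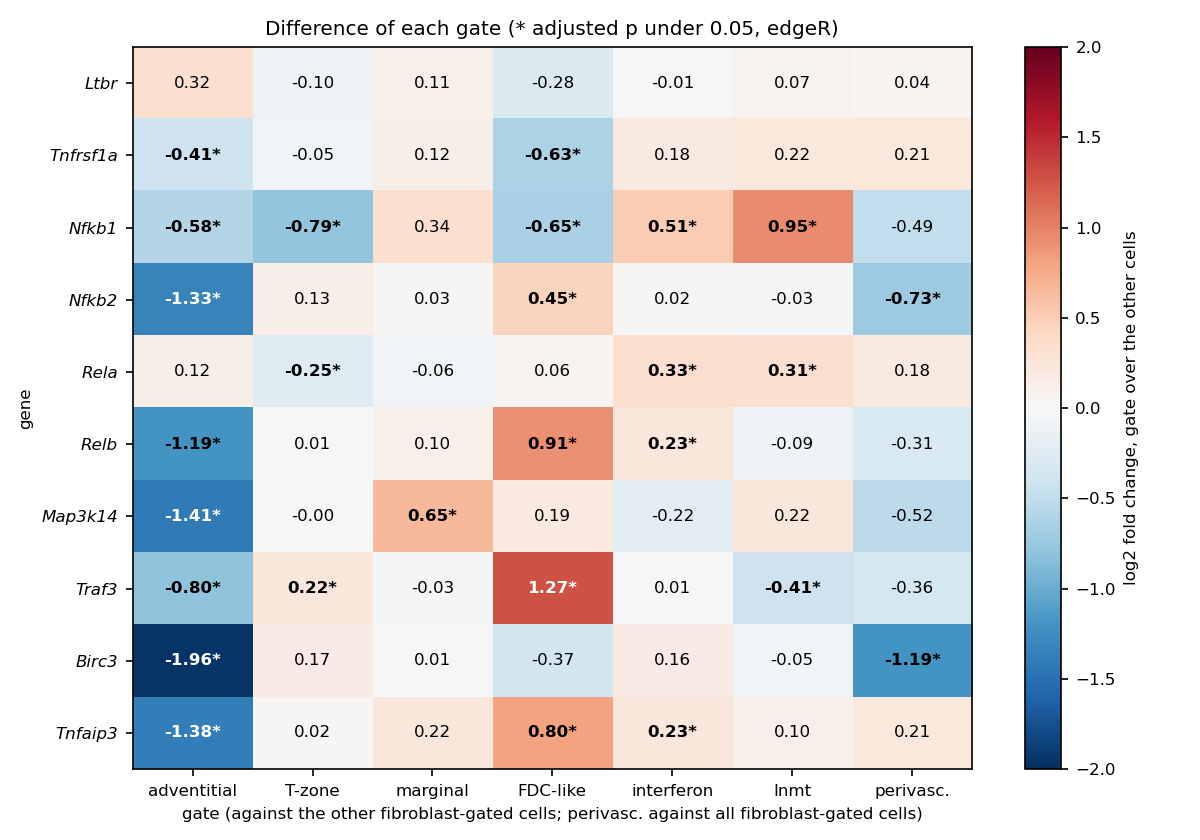
Log2 fold change (color and number) of the 10 genes in each gate over the other fibroblast-gated cells, with an asterisk where edgeR's adjusted p was under 0.05. The adventitial column has 8 asterisks, all negative, and the follicular dendritic-like (FDC-like) column has positive ones for Traf3, Relb, Tnfaip3 and Nfkb2.

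Follicular dendritic-like cells, the stromal cells of B cell follicles marked by Cr2, Fcer2a and Sox9, held more of several of the same genes. They were tested in batch 2, with 52 cells in Notch2 cKO 2 and 105 in control 2, since batch 1 had 3 and 4 such cells. Of the 10 genes 4 were higher and 2 lower, where 20.5% of 17268 genes passed (9.2% higher and 11.3% lower). The fit had 2 libraries and 1 residual degree of freedom. Traf3 had 206 CPM in these cells of Notch2 cKO 2 and 230.5 CPM in those of control 2, against 99.9 and 74.5 CPM in the other fibroblasts (log2 fold change 1.27, SE 0.17). Relb had 287 and 262 CPM, against 144 and 132 CPM in the other fibroblasts (0.91, SE 0.17), and Tnfaip3 had 332 and 476 CPM, against 162 and 284 CPM (0.80, SE 0.16). Neither Traf3 nor Relb nor Tnfaip3 overlapped between the cells compared. With 2 libraries this sets them little apart, since Rela (0.06), Ltbr (-0.28) and Map3k14 (0.19) did not overlap either and did not pass.

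Nfkb2 was higher by less, with 205 and 152 CPM in follicular dendritic-like cells of Notch2 cKO 2 and control 2, against 138 and 107 CPM in the other fibroblasts (log2 fold change 0.45, SE 0.17, edgeR Benjamini-Hochberg adjusted p = 0.047). DESeq2 did not call it (adjusted p = 0.13). Nfkb1 (-0.65) and Tnfrsf1a (-0.63) were lower, and Map3k14, Rela, Ltbr and Birc3 did not pass. Without the 5% of cells with the most UMIs, 4 of the 10 genes passed, with Nfkb2 (0.40) and Tnfrsf1a (-0.57) no longer among them. Without the library block, 2 passed.

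Among partner genes in the same gate, Traf1, an adaptor of the TNF receptor family, had a log2 fold change of 3.03 (SE 0.20). Traf1 stood at 140.6 CPM in Notch2 cKO 2 and 120.1 CPM in control 2. Cd40, the receptor by which B cells and antigen-presenting cells receive T cell help, had 27.4 and 15.0 CPM (15 and 17 UMIs), and fibroblasts of no class gate had 0.25 and 0.18 CPM in the same libraries. Tnfrsf11a, the receptor RANK, had 13 UMIs in each of the 2 libraries. Leukocyte-gated cells of the same libraries had 43.0 and 24.0 CPM of Cd40, 3.00 and 2.40 CPM of Tnfrsf11a, and 167 and 118 CPM of Traf1. Summed leukocyte markers were at 29.2 and 27.4 CPM in follicular dendritic-like cells, at 17.2 and 12.1 CPM in the other fibroblasts, and at 5409 and 4441 CPM in leukocyte-gated cells of Notch2 cKO 2 and control 2. Their part in these values was not tested. Of 11 inhibitors and other Rel genes 7 were higher and 0 lower, led by Nfkbid at 3.26. Inflammatory targets went down for 8 of 13, with Vcam1 the 1 that was higher (1.21), and immediate early genes were lower for 6 of 12.

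T-zone reticular-like cells, which guide T cells with Ccl21a, differed little from other fibroblasts in most of the 10 genes. Here 1 was higher and 2 were lower, where 29.8% of 16439 genes passed (14.6% higher and 15.2% lower). Nfkb1 had 145 and 653 CPM in T-zone cells of Notch2 cKO 1 and 2 and 127 and 817 CPM in those of control 1 and 2, against 249, 957, 289.9 and 1557 CPM in the other fibroblasts. It was lower in T-zone cells within each library (log2 fold change -0.79, SE 0.12, edgeR Benjamini-Hochberg adjusted p = 0.0019), while batch 2 values of both sets of cells exceeded all values of batch 1. Rela was lower by 0.25 and Traf3 higher by 0.22 on the log2 scale. Neither Rela nor Traf3 passed without control 1, without Notch2 cKO 1 or without control 2, and Traf3 did not pass without Notch2 cKO 2. Among the fibroblast gates and the perivascular-like gate, Rela was lowest in T-zone cells in 4 of 4 libraries.

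T-zone cells were distinguished by a ligand. Ltb, which encodes the membrane anchor of lymphotoxin, stood at 46.5 and 65.5 CPM in T-zone cells of Notch2 cKO 1 and 2 and at 98.0 and 63.2 CPM in those of control 1 and 2. Adventitial-like cells had 4.28, 5.35, 2.94 and 3.66 CPM, and Inmt-high cells had 0, 4.23, 0 and 4.0 CPM. Leukocyte-gated cells had 265, 445, 401 and 374 CPM. The T-zone log2 fold change against the other fibroblasts was 1.84 (SE 0.14, edgeR Benjamini-Hochberg adjusted p = 5.2e-05). Ltb was not confined to T-zone cells. Against cells of no class gate, though not against all other fibroblasts, its log2 fold change was positive in marginal and interferon-high cells too. Summed leukocyte markers were at 8.07 to 16.7 CPM in T-zone cells and 6.71 to 17.7 CPM in the other fibroblasts.

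Marginal reticular-like cells, which line the subcapsular sinus and carry Tnfsf11 and Cxcl13, stood out by Map3k14. It had 103 and 146 CPM in the marginal cells of Notch2 cKO 1 and 2 and 84.2 and 139 CPM in those of control 1 and 2, against 56.9, 91.1, 44.3 and 89.7 CPM in the other fibroblasts. The marginal value was the highest among the fibroblast gates and the perivascular-like gate in 4 of 4 libraries (log2 fold change 0.65, SE 0.09, edgeR Benjamini-Hochberg adjusted p = 1.7e-05). It was the 1 gene of 10 that passed, where 21.5% of 15485 genes did (8.12% higher and 13.4% lower). Nfkb1 (0.34) and Tnfaip3 (0.22) had smaller differences that did not pass. The count was 2 without control 2 and 2 without Notch2 cKO 2.

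Interferon-high and Inmt-high cells both held more of the canonical genes Nfkb1 and Rela. In interferon-high cells, gated by Cxcl9, Cxcl10, Iigp1 and Gbp4, 4 of the 10 genes were higher and 0 lower, where 7.98% of 15105 genes passed (4.67% higher and 3.31% lower). Nfkb1 had 314, 924, 324 and 1800.1 CPM in interferon-high cells, against 194, 799, 211 and 1286 CPM in the other fibroblasts (Notch2 cKO 1 and 2, then control 1 and 2), a log2 fold change of 0.51 (SE 0.07). Rela (0.33), Tnfaip3 (0.23) and Relb (0.23) were higher by less. In batch 2 alone 1 of the 10 genes passed. Relb did not pass without control 1, without control 2 or without Notch2 cKO 2, and Tnfaip3 did not pass without Notch2 cKO 1 or without control 2. Of 13 inflammatory targets 11 were higher, led by Irf1 (1.33), Sod2 (1.17) and Cxcl5 (1.14). Cxcl9 and Cxcl10, used for the gate, are known to respond to NF-kB as well as to interferon.

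Inmt-high cells had 2 of the 10 genes higher and 1 lower, where 22.9% of 15192 genes passed (9.47% higher and 13.4% lower). Nfkb1 had 493, 1539, 344 and 2076 CPM in Inmt-high cells, against 195, 769, 211 and 1278 CPM in the other fibroblasts, higher in each library (log2 fold change 0.95, SE 0.10, edgeR Benjamini-Hochberg adjusted p = 1.1e-06). Rela was higher by 0.31 and Traf3 was lower by 0.41 on the log2 scale, and Traf3 did not pass without Notch2 cKO 2 (-0.34). The noncanonical genes Nfkb2 and Relb did not pass, at -0.03 and -0.09. Inflammatory targets were higher for 9 of 13, with Cxcl5 at 2.22 and Il6 at 1.10, and immediate early genes for 8 of 12. The summed immediate early level was 27679 to 43636 CPM in Inmt-high cells and 21662 to 34876 CPM in the other fibroblasts, and its part was not tested.

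Perivascular-like cells, marked by Rgs5, Kcnj8 and Myh11, had 2 of the 10 genes lower than all fibroblast-gated cells, where 30.5% of 15182 genes passed (13% higher and 17.5% lower). Birc3 had 193 and 411 CPM in perivascular-like cells of Notch2 cKO 1 and 2 and 165 and 416 CPM in those of control 1 and 2, against 361, 696, 284 and 865 CPM in fibroblasts (log2 fold change -1.19, SE 0.23). Nfkb2 was lower by 0.73 on the log2 scale and did not pass without control 2 (-0.98). The count was 1 without control 2 and 6 in batch 2 alone. Batch 1 held 20 such cells in Notch2 cKO 1 and 40 in control 1. The 40 cells of control 1 held more T-zone markers (12736 CPM summed) than perivascular markers (4108 CPM), whereas the other libraries had 1140 to 2062 CPM of T-zone markers and 4827 to 8053 CPM of perivascular markers in this gate. Their lymphoid-organ targets summed to 19853 CPM, against 2438 to 2835 CPM in the other libraries, so the gate's name does not hold for control 1. Without control 1, the log2 fold change was -1.17 for Birc3 and -0.62 for Nfkb2, and both passed.

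**Figure D3:**
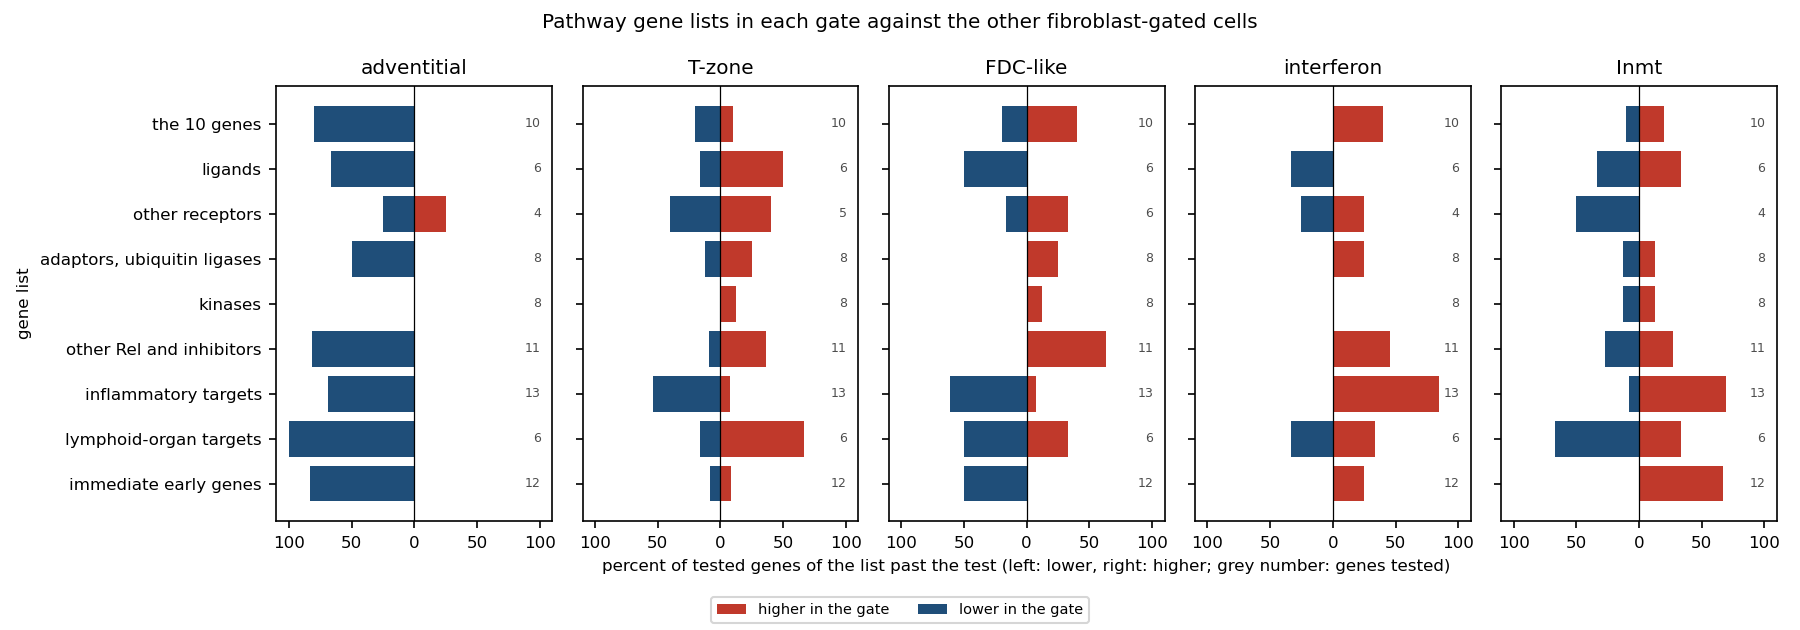
Percent of the tested genes of each pathway list past edgeR's test in 5 gates against the other fibroblast-gated cells, with lower to the left and higher to the right, and the number of genes tested in grey. In adventitial-like cells no list except the other receptors has a gene that is higher, and the kinases have none in either direction.

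Loss of Notch2 in the Ccl19-Cre lineage was not accompanied by a detectable change of any of the 10 genes. In all fibroblast-gated cells 0 of 10 passed (edgeR quasi-likelihood, batch in the model, Benjamini-Hochberg adjustment), where 3.13% of 17686 genes passed, 0 had an unadjusted p under 0.05, and DESeq2 also called 0. The count was 0 of 10 as well in T-zone (6.51% of 15166 genes passed), interferon-high (4.93%), no class gate (1.67%), marginal (1.38%), Inmt-high (0.479%), perivascular-like (0.0097%) and adventitial-like cells (0 of 9591 genes passed). The follicular dendritic-like gate had 2 libraries and could not be fitted. With 2 libraries per group and 1 residual degree of freedom, SEs in all fibroblasts ran from 0.19 to 0.29 on the log2 scale, which limits the size of change that could be called.

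The largest values in all fibroblasts came from Nfkb1, Tnfaip3, Traf3 and Nfkb2. Traf3 had 45.8 and 100.5 CPM in Notch2 cKO 1 and 2, against 33.6 and 76.1 CPM in control 1 and 2, a log2 fold change of 0.38 (SE 0.19) with 0.46 in batch 1 and 0.34 in batch 2. Nfkb2 had 227 and 139 CPM in Notch2 cKO 1 and 2, against 185 and 107 CPM in control 1 and 2 (0.29, SE 0.21, and 0.31 in each batch). For both genes the cKO library was the higher within each batch and the groups overlapped across batches. The 2 batches gave the same sign for 6 of the 10 genes and for 54.7% of all 17686 genes tested. Tnfaip3 had 249.8 and 163 CPM in Notch2 cKO 1 and 2, against 245 and 286 CPM in control 1 and 2. Its value of -0.44 (SE 0.26) came from batch 2, with 0.04 in batch 1 and -0.87 in batch 2. Nfkb1 (-0.46, SE 0.29) was likewise at -0.10 in batch 1 and -0.78 in batch 2, and Birc3 went opposite ways, at 0.35 and -0.37. By genotype label, control 1 carried Ccl19-Cre with no floxed allele named, whereas control 2 carried Notch2 fl/fl with no Cre named. The 2 batches thus compared Notch2 cKO with different controls, which cannot be told apart from the other batch differences.

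In the gates, 2 members had an unadjusted p under 0.05 without passing the adjusted test. Tnfaip3 in adventitial-like cells had 87.3 and 58.0 CPM in Notch2 cKO 1 and 2, against 183 and 98.2 CPM in control 1 and 2 (log2 fold change -0.95, SE 0.28, edgeR Benjamini-Hochberg adjusted p = 1.0). The cKO cells were the lower within both batches, at -1.0 and -0.87. Nfkb1 in fibroblasts of no class gate was at -0.68 (SE 0.27, edgeR Benjamini-Hochberg adjusted p = 0.37). The difference of the genotype effect between T-zone cells and the other fibroblasts was tested directly and passed for 0 of 10 members, where 0.973% of 16439 genes passed.

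Levels of several genes differed between the batches. Nfkb1 averaged 5.05 times as many CPM in batch 2 as in batch 1, and Birc3 2.42, Traf3 2.22, Relb 1.92 and Map3k14 1.87 times as many, whereas Nfkb2 was at 0.598 times. Rela (1.39 times), Tnfaip3 (0.908), Tnfrsf1a (0.868) and Ltbr (0.781) differed less. The headers of the deposited tables name Cell Ranger 7.1.0 for batch 2 and 5.0.1 for batch 1. Software version, depth, reporter, the genotype label of the control and mice all change with the batch and cannot be told apart.

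Although the 10 genes themselves did not pass, some downstream genes were lower in Notch2 cKO. Among inflammatory NF-kB targets 4 of 13 fell in all fibroblasts and 0 rose. Il6 had 96.9 and 57.5 CPM in Notch2 cKO 1 and 2, against 144 and 363 CPM in control 1 and 2 (log2 fold change -1.66, SE 0.40), and Lif, a cytokine of the same family, had 11.0 and 4.85 CPM, against 27.6 and 55.6 CPM (-2.49, SE 0.42). The chemokines Cxcl2 (-1.44) and Cxcl5 (-1.17) were the other pair. For Il6, Lif, Cxcl2 and Cxcl5 alike the cKO library was the lower within both batches. Of 6 lymphoid-organ targets Madcam1, an addressin, fell to 6.12 and 7.71 CPM in Notch2 cKO 1 and 2, against 29.1 and 28.1 CPM in control 1 and 2 (-2.09, SE 0.22), and Glycam1 was at -2.01. Tnfrsf11b, the decoy receptor osteoprotegerin, had 0.49 and 0.57 CPM in Notch2 cKO 1 and 2, against 5.59 and 3.61 CPM in control 1 and 2 (-3.05, SE 0.40). Ccl19, the chemokine whose promoter drives Cre, was at -1.39 and did not pass (edgeR Benjamini-Hochberg adjusted p = 0.10). Of the ligands, adaptors, kinases, inhibitors and immediate early genes 0 passed in either direction in all fibroblasts. Fits that left out 1 library also had no batch term, so calls lost in them cannot be set down to the library. In them Il6, Lif, Cxcl2, Cxcl5, Madcam1, Glycam1 and Tnfrsf11b each stayed lower in Notch2 cKO. Il6, for one, was at -1.03 without control 2 and at -2.25 without Notch2 cKO 1. Leaving out Notch2 cKO 2 left 18 genes of the whole table past the test, and leaving out any other library left 0, with 217 to 352 at an unadjusted p under 0.05. With 4 libraries but no batch term, no gene of the whole table passed by edgeR, with 409 at an unadjusted p under 0.05.

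In T-zone cells Il6 (-2.12), Lif (-2.44), Cxcl2 (-1.18) and Cxcl5 (-1.57) were lower, and Tnfsf11, the ligand RANKL, fell as well (log2 fold change -1.63). Among the lymphoid-organ targets Madcam1 (-2.74), Glycam1 (-2.62) and Ccl19 (-1.81) were lower, and Cxcl13, the B cell chemokine, was higher (1.27). Tnfsf11 and Cxcl13 are also markers of the marginal gate, and a cell passing both gates went to the one whose cut it exceeded by more. The part of this rule in the values of Tnfsf11 and Cxcl13 was not tested. In interferon-high cells Rel, which encodes c-Rel, was lower (-0.87, SE 0.26), but it did not pass without the batch term or by DESeq2. Over all gates 40 genotype calls were made among the pathway lists and Notch2. With no library left out but without the batch term, 0 of them passed. Fits that left out 1 library lacked that term too, so they cannot show what hung on a single library.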

How the data were processed

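Droplet 3′-end libraries (10x) of sorted lymph-node stromal cells were deposited by the authors as whole-number counts of UMIs per gene and cell. Per the file headers, Cell Ranger 7.1.0 wrote the batch 2 tables and 5.0.1 those of batch 1, while the submitters' processing notes name 5.0.1 and mm10. The sources used here do not state whether intronic reads were counted. Kept cells had 500 or more genes, 1000 or more UMIs and no more than 10% of mitochondrial counts. Cells passing markers of more than 1 lineage were dropped, which was the treatment of doublets, and no doublet caller was run. Gates needed 2 markers (3 for marginal cells) and a summed marker level above a cut per 10000 UMIs. Counts were summed per library and gate, with at least 20 cells, and tested with edgeR 4.0.16 (TMM, quasi-likelihood, Benjamini-Hochberg at 0.05), with DESeq2 1.42.0 in R 4.3.3 as an alternative. Genotype was fitted with batch as a term, except where 1 library was left out, and gates with library as a block. Libraries of 1 batch deviated together (r = 0.8167 over 6525 genes). Libraries pool mice, so genotype p-values rest on 2 libraries per group and not on single mice. Gate p-values rest on differences within libraries, 2 of them for follicular dendritic-like cells and 4 for the other gates. In both, edgeR shares variance estimates across genes, so a p-value does not measure the spread of 1 gene alone. Floors cover counting error only. The outcome of a check of the genotype test on simulated data is not reported here, and no result above rests on it. Named genes were all 10 members, up to 4 genes per pathway list with the lowest genotype p, and the 3 genes most like Ltbr, Nfkb2 and Tnfaip3. Other list genes named for single gates were chosen after their values were seen. Members, lists and gates were chosen with earlier results of these data known. Omitting the 5% of cells with the most UMIs, batch 2 alone, and cells of no class gate as the set compared with were alternatives chosen after seeing the data.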

Additional observations from a re-analysis of the deposited data

How the results depend on the processing

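Counts of the 10 genes past the genotype test, and past the test of the T-zone difference in genotype effect, were 0 under all alternatives with 4 libraries. The genotype fit without the batch term could show little, since it kept 0 of the 40 calls among the pathway lists and Notch2. Genotype fits that left out 1 library lacked the term as well. For differences between gates, the 27 calls gave 360 values under the alternatives, of which 291 kept their side of the threshold, 69 did not pass and 0 changed direction. Fitting gates without the library block, that is without pairing a gate with the other cells of its library, lowered the count to 4 in adventitial-like cells, 2 in follicular dendritic-like cells and 0 in T-zone, marginal, interferon-high, Inmt-high and perivascular-like cells, and no genotype count changed without the replicate block. In batch 2 alone 1 of the 10 genes passed in T-zone cells, 1 in interferon-high cells and 6 in perivascular-like cells. Marginal cells had 2 without TMM scaling and 2 by DESeq2. Perivascular-like cells had 5 with the stricter cell filter, 1 with gates on thinned cells and 6 with the cut doubled. Leaving out 1 library gave 1 to 2 genes in T-zone, 1 to 2 in marginal, 6 to 8 in adventitial-like, 3 to 4 in interferon-high, 2 to 3 in Inmt-high and 1 to 3 in perivascular-like cells. The cause was not tested. Of other pathway genes, 8 values changed sign. Against cells of no class gate, Ltb turned to 0.25 in marginal and 0.57 in interferon-high cells, Ccl21a to 0.89 in interferon-high cells and Tnfsf11 to 0.13 in perivascular-like cells. Cxcl13 was at -0.054 in Inmt-high cells of batch 2 alone, Lif in perivascular-like cells ranged over left-out libraries from -2.02 to 0.14, the value without control 2, and with thinned gates Cxcl13 was at 0.35 and Madcam1 at 0.91 in perivascular-like cells. Follicular dendritic-like cells could not be fitted without a batch 2 library or with thinned gates. Few cells in adventitial-like and follicular dendritic-like gates, and 2 libraries per group, limit what could be called.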

Other observations

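Over 30 sums of a library and a gate, centred per library, Pearson's r of log2 CPM between pairs of the 10 genes ran from -0.51 (Ltbr and Tnfaip3) to 0.90 (Nfkb2 and Birc3, and Nfkb2 and Relb). Relb and Birc3 had 0.83, and Tnfaip3 had 0.75 with both Nfkb2 and Relb. Other pairs of the noncanonical arm ran from 0.73 for Relb and Map3k14 and 0.69 for Relb and Traf3 to 0.42 for Map3k14 and Traf3. Among those between were Nfkb2 and Map3k14 (0.61) and Traf3 and Birc3 (0.53). Ltbr had -0.46 with Nfkb2 and -0.43 with Relb. These values describe sums that share libraries and depth. Among 6758 genes, those most like Nfkb2 were Ttyh3 (0.92), Smad7 (0.92) and Phip (0.91), those most like Tnfaip3 were Tuba1c (0.91), Ptgir (0.91) and Cd82 (0.90), and those most like Ltbr were Rab3gap1, Xpot and Rcor3 (0.73 each).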
